A study of Mus musculus with 9 samples.

Results

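Immediate early genes are transcribed within minutes of a stimulus from factors already present in the cell, and most of their products are transcription factors or brakes on the signal that induced them. The same genes, with heat shock chaperones, are known to rise while a tissue is digested into single cells, so they are often read as a signature of dissociation. A fixed list of 39 such genes was followed here in RNA sequencing of mouse retinal cells prepared as Müller glia, the radial glia that span the retina. All 39 are listed, by symbol, among the 16367 genes of the table of sorted cells and among the 17035 genes of the table of cultured cells.

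Each group had 3 libraries, and the labels give the genotype of all samples as WT. The OHT animals (ocular hypertension) received 1.2 µL of silicone oil in the anterior chamber of both eyes, and the sham animals a corneal incision without oil. Retinas of both groups were digested with papain, depleted of dead cells and sorted on magnetic beads through an antibody against GLAST, a glutamate transporter that is known from astrocytes as well as Müller glia. Every sorted library was a pool of 4 retinas, and the labels do not tie pools to animals, so p-values measure only the spread between these pools. The third group, primary cultures from C57BL/6J pups 8 to 10 days old, was also started from papain-digested retina but was grown in serum, passaged and left untreated. Strain and age of the sorted animals and the time after injection are not given in the labels.

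Library depth was 37822145 to 53592052 reads in the sorted libraries and 66309309 to 76745389 in the cultures. The sorted cells were not Müller glia alone: summed over 14 microglia and macrophage markers, reads took 3.57 to 5.45% of the sham libraries and 4.94 to 6.47% of the OHT libraries, against 0.470 to 1.23% and 0.263 to 0.566% for 14 Müller glia markers. Monocyte and neutrophil markers took 0.100 to 0.758% in sham and 1.19 to 1.46% in OHT, without overlap, and astrocyte markers 0.00492 to 0.137% and 0.00332 to 0.0135%. The 14 rod markers took 0.299 to 2.78% in sham and 0.104 to 0.382% in OHT, and mitochondrially encoded genes 12.2 to 18.1% and 1.98 to 5.56%. In the cultures the microglia markers were at 0.0107 to 0.0169%, the Müller glia markers at 0.298 to 0.369%, and 9 mural and fibroblast markers at 1.62 to 1.92%. Of the Müller glia markers, Rlbp1 took 1.60 to 2.84 of every 1000000 reads in the cultures and 389 to 2090 in the sorted libraries. Glul took 24.9 to 48.2 and 495 to 2088, and Slc1a3 23.9 to 49.6 and 140 to 802. The summed share in the cultures thus came mostly from other markers of the list, which are not given singly here. The part of this cell makeup in the results below was not tested, and in such bulk samples fewer cells of a type and less RNA per cell cannot be told apart.

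The 39 genes together took 3.07, 2.52 and 2.21% of all reads in sham replicates 1 to 3 and 1.54, 2.43 and 2.28% in OHT replicates 1 to 3. The lowest of the 6 sorted shares was that of OHT replicate 1, and the groups overlapped. Out of the total without mitochondrially encoded genes they did not, at 2.58 to 3.57% in sham and 1.64 to 2.53% in OHT. Out of the total without the 20 highest genes they overlapped, at 3.15 to 4.03% in sham and 2.26 to 3.38% in OHT. In the 3 cultures the same genes took 0.319, 0.334 and 0.341%. The AP-1 subunits were the largest role group of each sham library, at 0.679 to 0.877%, and took 0.272 to 0.675% of the OHT libraries. In OHT replicate 3 the heat shock chaperones, at 0.541%, the genes of mRNA decay and growth arrest, at 0.515%, and the KLF factors, at 0.334%, each took more reads than the AP-1 subunits.

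**Figure D1:**
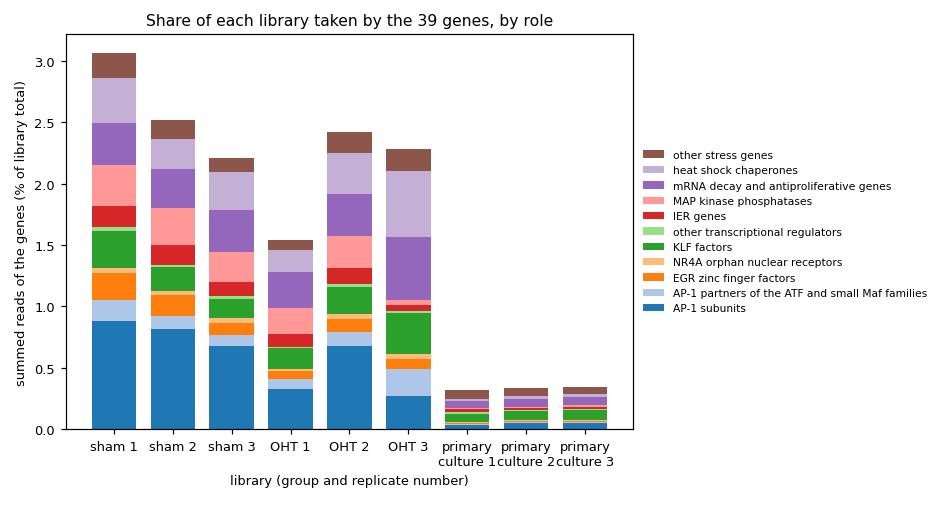
Summed reads of the 39 genes as a percentage of all reads (y axis) in each of the 9 libraries (x axis), stacked by role. The sorted libraries stand at 1.54 to 3.07% and the cultures at 0.319 to 0.341%. OHT replicate 3 has the thinnest layer of MAP kinase phosphatases among the sorted libraries, 0.0387%, and the thickest of heat shock chaperones, 0.541%.

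Levels of different genes were set side by side only as ppm (parts per 1000000 of the reads of a library) per kilobase of transcript. On that scale the highest means over the 6 sorted libraries were those of Fos (1107 ± 307, SD, n = 6), Dusp1 (1043 ± 503), Jun (779.8 ± 479.5) and Hspa1a (663 ± 165). Their spreads overlap, so this order holds no further than that. Atf3, Ier2, Junb and Zfp36 followed at 569 to 631 ppm per kilobase. Fosl1, at 0.562 ± 0.380, and Nr4a3, at 1.44 ± 1.20, were the lowest, and every library had reads for all 39 genes. In the cultures the order was another one, led by Sgk1 (189 ± 29.0 ppm per kilobase, SD, n = 3), Klf6 (153 ± 8.81) and Ier3 (111 ± 42.2), with Fos at 72.7 ± 7.98 and Hspa1a at 1.55 ± 0.282.

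Sequence upstream of the start sites is shown for 4 genes that the results turn on. Fos and Zfp36 were high in every sorted library, and Jun and Dusp1 were far below the other sorted libraries in OHT replicate 3. These are the 250 bases before the start, 5′ to 3′ on the gene's strand, from RefSeq for GRCm38.p6, at chr12:85473640-85473889 (Fos, plus strand), chr4:95052223-95052472 (Jun, minus), chr17:26508473-26508722 (Dusp1, minus) and chr7:28379229-28379478 (Zfp36, minus). Capitals mark matches, on either strand, to any of 4 motifs: the CArG box bound by serum response factor, the cAMP response element TGACGTCA, the AP-1 site TGANTCA and the heat shock element. No motif overlaps another in these windows.
Fos: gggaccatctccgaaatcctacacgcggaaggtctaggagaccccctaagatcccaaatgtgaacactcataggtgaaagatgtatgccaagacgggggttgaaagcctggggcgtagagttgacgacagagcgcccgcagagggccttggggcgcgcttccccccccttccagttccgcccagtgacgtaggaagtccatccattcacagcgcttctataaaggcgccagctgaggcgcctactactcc
Jun: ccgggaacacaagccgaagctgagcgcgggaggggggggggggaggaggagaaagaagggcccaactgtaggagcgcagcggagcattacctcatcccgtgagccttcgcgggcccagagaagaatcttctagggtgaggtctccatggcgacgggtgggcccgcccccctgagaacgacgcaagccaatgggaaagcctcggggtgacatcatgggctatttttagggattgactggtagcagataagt
Dusp1: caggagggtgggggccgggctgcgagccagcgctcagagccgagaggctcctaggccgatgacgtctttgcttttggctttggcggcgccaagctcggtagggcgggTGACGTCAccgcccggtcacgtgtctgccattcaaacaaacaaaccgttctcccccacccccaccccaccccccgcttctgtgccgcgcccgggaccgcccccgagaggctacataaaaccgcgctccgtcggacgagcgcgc
Zfp36: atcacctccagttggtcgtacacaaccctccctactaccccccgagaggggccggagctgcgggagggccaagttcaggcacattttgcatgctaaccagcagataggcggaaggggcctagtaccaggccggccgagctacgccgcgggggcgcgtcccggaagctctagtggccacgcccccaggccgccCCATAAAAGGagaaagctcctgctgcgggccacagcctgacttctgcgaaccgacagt

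The Dusp1 window holds the cAMP response element and the Zfp36 window a CArG box, and the letters of none of the 4 motifs are in the Fos and Jun windows. Only exact matches within the 250 bases were searched for, so sites further upstream or with a changed base are not covered. Of the 39 genes, 33 have a window in the table. The CArG box was found in 3 of these (Egr2, Dusp5 and Zfp36), against 1.62% of the 27025 genes with a window. The cAMP response element was also found in 3 (Maff, Dusp1 and Btg2), against 1.77% of genes, and the AP-1 site in 2 (Csrnp1 and Zfp36l1), against 7.82%. No window of the 33 genes holds an exact match to the heat shock element as searched, which is in 0.514% of genes. Imperfect elements were not searched for, so this does not show that the heat shock chaperones lack one. Several genes have more than 1 start site, and a match in any window was counted.

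Whether raised eye pressure went with other levels of these genes was asked by comparing OHT with sham. At an adjusted p under 0.05 (limma, Benjamini-Hochberg over all genes tested), 0 of the 39 genes passed, as did 0 of the 14403 genes tested (0%). The smallest adjusted p among the 39 was 0.429, for Jun. At an unadjusted p under 0.05 there were 0 of the 39 genes, against 11.7% of all genes tested. edgeR's quasi-likelihood test also called 0 of the 39 and 0 of all genes (0%), with Egr1 alone of the 39 at an unadjusted p under 0.05, and DESeq2 called 0 of the 39 while it called 1.74% of all genes. The fitted log2 differences of the 39 genes ran from -1.66 to 0.75, with 24 above 0 and 15 below. Their median was 0.14, beside -0.12 over all genes tested.

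**Figure D2:**
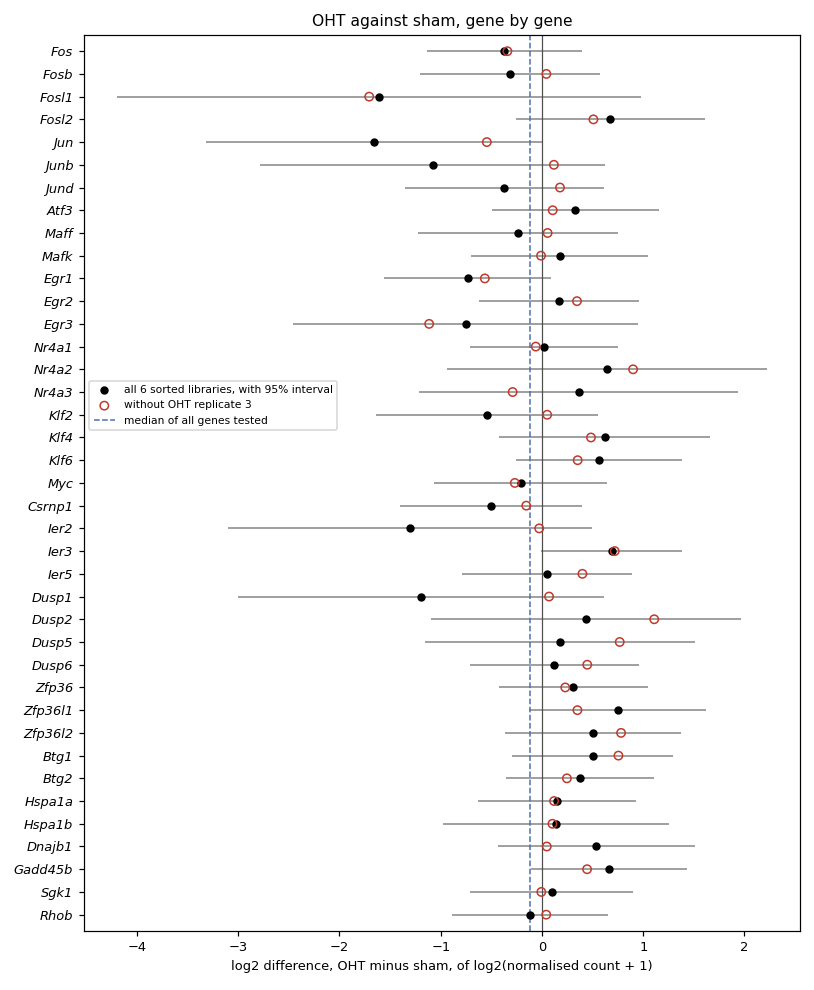
Log2 difference between OHT and sham (x axis) for each of the 39 genes (y axis). Black points with bars are limma estimates from 3 against 3 libraries with their 95% intervals, open red circles the estimates without OHT replicate 3, and the dashed line is the median of all genes tested, -0.12. Every interval spans 0, closest for Jun, which ends at 0.0035, and Ier3, which starts at -0.0071. Jun, Junb, Ier2 and Dusp1 move most when that library is left out.

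Among the 39, 3 genes had no overlap between the groups: Ier3 higher in OHT, and Fos and Fosl1 lower. That is 2.56% and 5.13% of the 39, where 9.26% of all genes tested were higher in this sense and 9.18% lower (18.4% either way). Leaving out a library can only add such genes, among the 39 as among all. The counts were 7 higher and 2 lower without sham replicate 1 (16.1% and 17.8% of all genes), 1 and 3 without sham replicate 2 (10.8% and 11.4%) and 5 and 6 without sham replicate 3 (12.9% and 13.1%). They were 2 and 3 without OHT replicate 1 (13% and 13%), 7 and 5 without OHT replicate 2 (18% and 18.6%) and 6 and 2 without OHT replicate 3 (16.2% and 16.7%). The genes added without OHT replicate 3 were Jund, Dusp5, Dusp6, Zfp36l2 and Btg1, all higher in OHT. The scaling moves the direction of the list. With quantile normalization the median of the 39 genes was -0.17, with 14 above 0 and 25 below, while the median of all genes moved from -0.12 to 0.01. The groups then did not overlap for 5 of the 39 genes, 1 higher and 4 lower, where 9.47% of all genes were higher and 7.09% lower in this sense.

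AP-1 is a dimer of a Fos family protein with a Jun family protein, and it binds the promoters of many stress-induced genes. Fos, the archetypal immediate early gene, had 119683, 113708 and 103534 normalised counts in the sham libraries and 81287, 96281 and 83100.1 in OHT. All 3 OHT values lay below all 3 sham values, by a log2 difference of -0.37 (SE 0.35, limma adjusted p 0.662). Fosb, a close relative, had 4682, 3455 and 3224 counts in sham and 4779, 3102 and 1829.5 in OHT, with the lowest value in OHT replicate 3. Fosl1, which encodes Fra-1, was near the bottom of the range, at 47.5, 86.7 and 51.7 in sham and 6.91, 42.8 and 21.6 in OHT (difference on the log2 scale -1.61, SE 1.18, with a limma adjusted p of 0.579). Fosl2, which encodes Fra-2, had 738, 809 and 1039 counts in sham and 1509, 975.5 and 1721 in OHT, and was the only AP-1 subunit with a difference above 0 (0.68, SE 0.43, limma adjusted p 0.532).

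Jun, the main partner of Fos, had 163387, 149510.0 and 114249 counts in sham and 73016, 127591 and 9513 in OHT. OHT replicate 3 lay 7.68-fold below the next lowest library, and OHT replicate 2 was inside the sham range. OHT was lower by a log2 difference of -1.66 (SE 0.76, limma adjusted p 0.429) with all libraries and of -0.54 without OHT replicate 3. Junb, which can replace Jun and is a weaker activator, had 49073, 47946 and 61674 counts in sham and 50744, 64085 and 4741 in OHT. Its log2 difference changed from -1.08 to 0.12 without OHT replicate 3. Jund, the least inducible Jun gene, had 5037, 4134 and 5106 counts in sham and 5202, 5522 and 1709 in OHT, and its difference changed from -0.37 to 0.18. All 3 Jun genes were thus lowest in the same library.

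Atf3 belongs to the ATF/CREB family, pairs with Jun proteins and mostly represses transcription. It had 64875, 41419.5 and 36027 counts in sham and 49774, 49065 and 78777 in OHT, highest in OHT replicate 3 (difference on the log2 scale 0.33, SE 0.37, with a limma adjusted p of 0.715, and -0.03 with quantile normalization). The small Maf genes Maff and Mafk encode partners that lack a transactivation domain. Maff had 1292, 1139 and 1356 counts in sham and 960.3, 1783 and 713 in OHT, so that the OHT libraries lay on both sides of sham, and Mafk had a range of 1043 to 1725 over the 6 libraries.

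The EGR genes encode zinc finger factors induced through serum response factor. Egr1 had 79692, 61565 and 38109.7 counts in sham and 37095, 40308 and 27143 in OHT. Sham replicate 3 lay within the OHT range, and OHT was lower by a log2 difference of -0.73 (SE 0.38, limma adjusted p 0.466). Egr2 ranged from 3828 to 7759 and the groups overlapped. Egr3 had 988, 317 and 163 counts in sham and 171, 170.4 and 362 in OHT, and its difference of -0.75 (SE 0.78, limma adjusted p 0.691) rested on sham replicate 1: without that library it was -0.05. Egr1 and Egr3 were both highest in sham replicate 1, as was Myc, the growth regulator, with 7932, 5342 and 3142 counts in sham and 3576, 5026 and 4772 in OHT. Without that library the difference of Myc changed from -0.21 to 0.11. Csrnp1, a nuclear protein that binds DNA, had 3571, 2565 and 4939 counts in sham and 3291, 3112 and 1561 in OHT.

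The NR4A genes encode orphan nuclear receptors that need no known ligand. Nr4a1 was even, at 13056, 10242 and 15286 in sham and 9449.6, 15661 and 14514 in OHT, with a log2 difference of 0.02 (SE 0.33) that was below 0 with TMM factors, quantile normalization and edgeR. Its 95% interval ran from -0.71 to 0.76. The low genes of the family each had a single high library: Nr4a2 was at 1223 in OHT replicate 1 against 205 to 366 in the other 5, and Nr4a3 was at 819.8 in OHT replicate 3 against 189 to 323.

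KLF factors are zinc finger proteins, of which Klf2 and Klf4 are known from endothelial cells and macrophages. Klf2 had 36898, 21302 and 18964 counts in sham and 20698, 31426 and 7449 in OHT, lowest in OHT replicate 3. Klf6 went the other way in that library, with 75117, 52464 and 46574 counts in sham and 81536, 64588 and 112412 in OHT (difference on the log2 scale 0.56, SE 0.38, with a limma adjusted p of 0.550). Klf4 had 6808, 2905 and 2092 counts in sham and 7146, 3274 and 6419.8 in OHT, a spread of 3.25-fold within sham alone.

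Ier2, Ier3 and Ier5 are named as immediate early response genes. Ier2, which encodes a nuclear protein, had 52736, 51695 and 38716 counts in sham and 50715, 42410.3 and 3254 in OHT. OHT replicate 3 lay 11.9-fold below the next lowest library, and without it the log2 difference changed from -1.30 to -0.03. Ier3, a regulator of cell survival, had 7389.6, 5633 and 6333 counts in sham and 13130.5, 8482 and 9918 in OHT. It was the 1 gene of the 39 whose OHT values all lay above sham, by a log2 difference of 0.69 (SE 0.32, limma adjusted p 0.432). Ier5 overlapped between the groups, at 4017 to 9650.1.

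Dual specificity phosphatases switch MAP kinases off. Dusp1, a nuclear phosphatase of p38, JNK and ERK, had 118668, 110077 and 94195 counts in sham and 124534, 101610.0 and 8091 in OHT. OHT replicate 3 lay 11.6-fold below the next lowest library, and the log2 difference of -1.20 (SE 0.82, limma adjusted p 0.559) changed to 0.07 without it. The ERK phosphatase Dusp6 had 10376, 10053 and 6017 counts in sham and 12535, 10871 and 5956 in OHT, so the lowest OHT library was close to the lowest sham library. Dusp2 and Dusp5 were low, at 286 to 1582 and 272 to 1083, and each was highest in OHT replicate 1 and lowest in OHT replicate 3.

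Zfp36, which encodes tristetraprolin, and its relatives bind AU-rich elements and hasten the decay of many immediate early and cytokine mRNAs, while Btg1 and Btg2 are antiproliferative partners of the deadenylase complex. Zfp36 was among the most even genes, at 59137, 55132 and 70797 in sham and 73698, 70231 and 84657 in OHT (difference on the log2 scale 0.31, SE 0.34, with a limma adjusted p of 0.707). A single OHT library, replicate 2, lay below the highest sham library. Zfp36l1 had 5645, 8303 and 9422 counts in sham and 10824, 8706 and 22239.7 in OHT, highest in OHT replicate 3, and had the largest difference above 0 of the 39 genes (0.75, SE 0.40, limma adjusted p 0.479). All 5 genes of this role had differences above 0 with the deposited scaling. With quantile normalization Zfp36 (-0.02) and Btg2 (-0.05) were below 0.

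Hspa1a and Hspa1b encode nearly identical inducible HSP70 chaperones, so the split of reads between them is uncertain, and Dnajb1 encodes their HSP40 partner. Hspa1a had 83552, 65680.5 and 91388 counts in sham and 73589, 101223 and 92035 in OHT. Hspa1b had 13382, 2734 and 3952 counts in sham, where replicate 1 stood apart, and 6259, 5081 and 6040.0 in OHT. Dnajb1 had 47554, 29654 and 36008 counts in sham and 36842, 39752 and 106262 in OHT, and its difference changed from 0.54 to 0.05 without OHT replicate 3, where it was highest.

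Of the other stress genes, Gadd45b, a growth arrest and DNA damage gene, had 3205, 3047 and 4904 counts in sham and 5128, 4770.3 and 7704 in OHT, with a log2 difference of 0.66 (SE 0.35, limma adjusted p 0.480). The kinase gene Sgk1 had 44592, 32814 and 24271 counts in sham and 25309, 42312 and 40344 in OHT, and Rhob, a small GTPase, had 30758, 24220.4 and 18052 and 20000.5, 29976 and 17594. The groups overlapped for all 3.

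**Figure D3:**
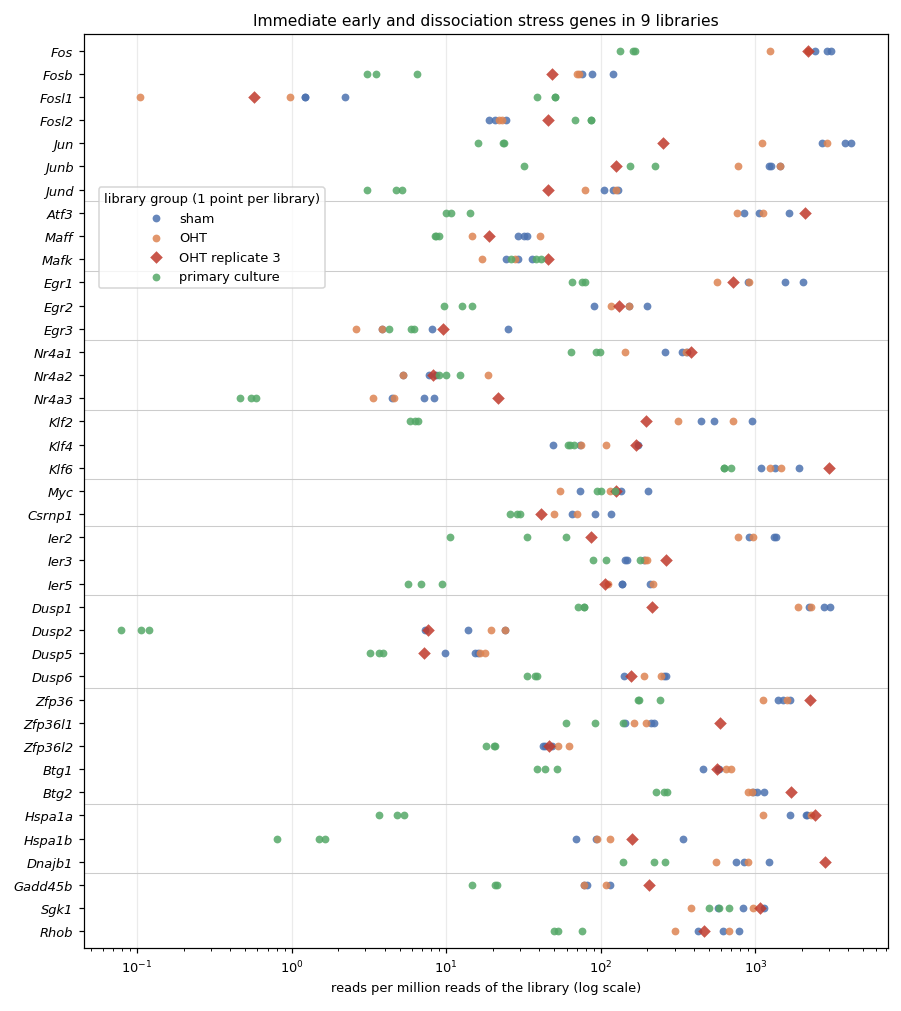
Level in ppm of the total reads of the library (x axis, log scale) for each of the 39 genes (y axis, ordered by role, grey lines between roles), 1 point per library. Red diamonds, OHT replicate 3, lie far left of the other sorted libraries for Jun (252), Junb (126), Ier2 (86.2) and Dusp1 (214) and to their right for Dnajb1 (2813). The cultures (green) lie left of the sorted libraries for 29 genes and right of them for Fosl1 and Fosl2.

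OHT replicate 3 stood apart in both directions. With the deposited scaling it had the lowest of the 6 sorted values for 15 of the 39 genes and the highest for 10. Of all genes tested, 18.5% had it lowest and 14.1% highest. Sham replicate 1 was highest for 11 of the 39 genes (10.5% of all genes) and lowest for 3 (12.1%). Sham replicates 2 and 3 were each highest for 1 gene (18.8% and 12.1%) and lowest for 9 (18% and 10%). OHT replicate 1 was highest for 10 (32.7%) and lowest for 3 (30.6%), and OHT replicate 2 highest for 6 (11.9%) and lowest for 0 (10.8%). The counts here and in the next paragraph are on the deposited scaling and were not made as ppm. As ppm, OHT replicate 1 was instead the lowest sorted library for Egr1 (564), Rhob (304) and Hspa1a (1118), among others. OHT replicate 3 stayed lowest for Jun, Junb, Ier2 and Dusp1. The log2 deviations of the 39 genes from their own means had an SD across genes of 1.16 in OHT replicate 3 and of 0.36 to 0.65 in the other 5 libraries, where all genes had 1.07 to 1.48 over the 6 libraries.

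In OHT replicate 3, 4 of the 39 genes (Jun, Junb, Ier2 and Dusp1) were at least 4-fold below the lowest of the other 5 libraries, against 6.85% of all genes tested. All 4 are abundant. Of the 39 genes, 33 averaged 1000 counts or more, and the same 4 of these were this low, against 3.24% of all 5550 genes of that level. Klf2 and Jund were at least 2-fold below, which makes 6 of the 33 (8.54% of all genes of that level) and 6 of the 39 (10.8% of all genes tested), with Klf2 at 7449 against 18964 or more elsewhere. Zfp36l1, Dnajb1 and Gadd45b were at least 1.5-fold above the highest of the other 5, where 2.09% of all genes of that level were. With the less abundant Nr4a3 this makes 4 of the 39, against 3.8% of all genes tested. These folds were chosen after the values were seen. Fos, at 83100.1, and Hspa1a, at 92035, were inside the range of the other libraries.

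GC content of the transcript went with the levels of the 39 genes in OHT replicate 3, and its part in the low values was not tested beyond the correction below. Across the 39 genes, the deviation of OHT replicate 3 from the other 5 sorted libraries had a Spearman rho of -0.58 with the GC content of the transcript (n = 39 genes of the same libraries), and the rho was -0.24 across 11084 genes that averaged 100 counts or more. The same measure was of like size and opposite sign in sham replicate 3 (0.60 over the 39 genes, 0.19 over all) and OHT replicate 2 (0.54 and 0.19), and 0.01 to 0.27 over the 39 genes in the other 3. Each of these libraries was set against a mean that includes OHT replicate 3, so these values are not independent of its own. In the highest GC class, 60% and more, the median deviation was -2.63 on the log2 scale for the 4 listed genes (Junb, Jund, Klf2 and Ier2) and -0.88 for all 429 genes. In the class under 45% it was 0.26 for the 2 listed genes and 0.23 for all 2649. Jun and Dusp1, with 55.5% and 54.9% GC, were 12.7-fold and 13.5-fold below the mean log2 level of the other 5 libraries, and Hspa1a, with 58.9%, was 1.12-fold above it. After a correction of each library for GC content and length, Jun, Dusp1, Ier2 and Junb were still 9.56, 9.81, 6.92 and 4.36-fold below that mean. Jund was then above it, by 0.74 on the log2 scale. Jun, Junb, Jund, Dusp1 and 8 others of the 39 genes overlap an exon on the opposite strand, and the labels do not say that counting used strand.

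**Figure D4:**
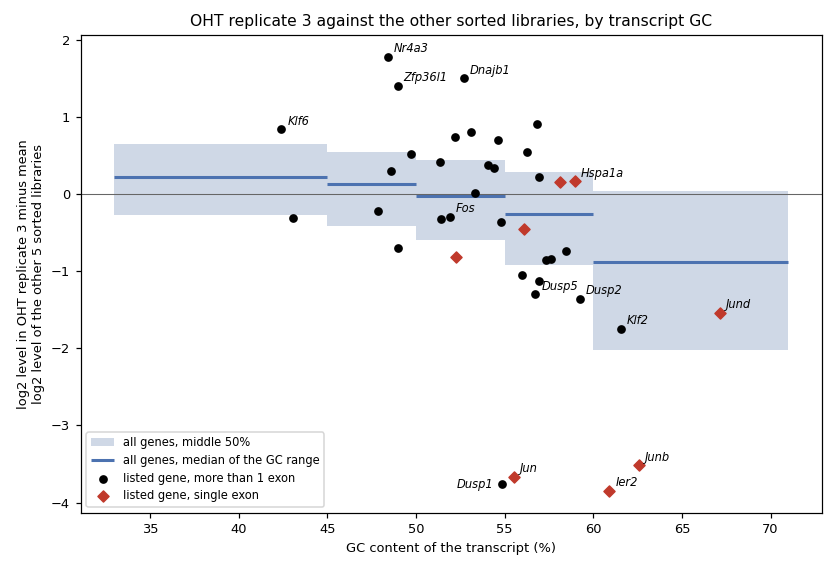
Log2 level in OHT replicate 3 minus the mean log2 level of the other 5 sorted libraries (y axis) against the GC content of the transcript (x axis) for the 39 genes, single-exon genes in red. Blue lines and bands give the median and the middle 50% of all genes averaging 100 counts or more, in 5 GC ranges. Jun, Dusp1, Junb and Ier2 lie below -3.5, far under the bands, while Hspa1a lies at 0.16.

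The cultures were set beside the sorted cells only as ppm of each library's total, and no test was made. The tables were normalised apart, preparation and cell makeup differ, and the age of the sorted animals is not given. All 3 cultures lay below all 6 sorted libraries for 29 of the 39 genes, against 16.5% of the 15438 genes in both tables, and above them for 2 (32.5% of genes). The largest gap was that of Hspa1a, at 4.78, 3.67 and 5.32 ppm in the cultures and 1118 to 2436 ppm in the sorted libraries, a ratio of the means of 429. Dusp2 (0.101 ± 0.0208 ppm in culture, SD, n = 3), Jun (20.98 ± 4.30), Hspa1b (1.32 ± 0.450), Atf3 (11.6 ± 2.28) and Klf2 (6.22 ± 0.356) had sorted means 159, 119, 111, 108 and 84.5-fold higher. Fos was at 165, 161 and 134 ppm in the cultures and 1235 to 3063 ppm in the sorted libraries, a ratio of 15.2.

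Fosl1 and Fosl2 were the genes above the sorted range. Fosl1 was at 50.9, 38.5 and 50.5 ppm in the cultures, 44.5-fold over the sorted mean of 1.05 ppm, and Fosl2 at 68.2, 86.1 and 86.9 ppm, 3.12-fold over it. The Fos family thus had Fos and Fosb lower and the Fra genes higher in culture. For 8 genes the ranges overlapped: Junb, Mafk, Egr3, Nr4a2, Klf4, Myc, Ier3 and Sgk1. Sgk1, at 678, 579 and 498 ppm, and Myc, at 124, 95.002 and 101 ppm, had ratios of sorted to culture means of 1.41 and 1.10. The cultures also differed among themselves: Junb had 32.0, 156 and 223 ppm and Ier2 10.5, 33.1 and 59.7 ppm, both lowest in replicate 1, where Zfp36 (243 ppm) and Ier3 (179.7 ppm) were highest.

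Genes around the 39 were followed through 4 lists, none of which had a gene past the threshold in limma. Of 25 genes of the upstream MAP kinase, SRF and CREB pathway, all tested, 11 had differences above 0 and 14 below (median log2 difference -0.06), and the groups did not overlap for 1, Mrtfa, a coactivator of serum response factor (1.15, SE 0.66, limma adjusted p 0.504), where 9.26% of all genes were higher in this sense. Of 30 other immediate early genes tested, 13 were above 0 and 17 below (median -0.28). Their smallest limma adjusted p was 0.332, for Cdkn1a, the cell cycle inhibitor p21 (1.20, SE 0.37), Id2 (1.08, SE 0.34), Klf9 (-1.69, SE 0.43) and Ccn2 (-2.85, SE 0.89). Klf9, a factor induced by glucocorticoids, had 1399.8, 1981 and 1556 counts in sham and 551, 552 and 417 in OHT. It was 1 of 6 genes of this list without overlap, 3 higher (Nfil3, Id2 and Cdkn1a) and 3 lower (Ccn2, Klf9 and Id1), where 18.4% of all genes were without overlap.

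Of 20 other heat shock and unfolded protein genes, 14 were above 0 and 6 below (median 0.46). The groups did not overlap for 2, Hspa8 and Bag3, both higher in OHT, where 9.26% of all genes were higher in this sense. Hspe1, a mitochondrial chaperonin, had the smallest p (1.54, SE 0.50, limma adjusted p 0.335). Hspb1, a small heat shock protein, had 3276 to 4296 counts in the other 5 libraries and 368.6 in OHT replicate 3. Hspe1 (25619) and Dnaja1 (28651.5) were highest in that library. Of 17 genes of NF-kB feedback and cytokines that microglia are known to induce on dissociation, 11 were above 0 and 6 below (median 0.33), with Il1b first (1.33, SE 0.45, limma adjusted p 0.343). The groups overlapped for all 17 genes. Cebpd, at 2657 to 5661 in the other 5 libraries, was at 97.0 in OHT replicate 3. All 15 of these NF-kB and cytokine genes that both tables list were lower in the 3 cultures than in any sorted library, where 16.5% of all genes were.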

How the data were processed

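Libraries were made from amplified cDNA of small RNA inputs, per the labels' protocols. The submitters' processing notes name bcl2fastq 2.20, Trim Galore 0.6.6, FastQC 0.11.9, STAR 2.7.1a and the build mm39. Which program counted and normalised the reads, and against which annotation, is not given in the sources used here.

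The deposited signal is 1 value per gene and library. It is read here as a count scaled per library, since 100% of the low values checked were whole multiples of the smallest value (tolerance 0.05 reads). In primary culture replicate 3 this step is too close to 1 to be a separate check. Recovered depth is 37822145 to 76745389 reads. A count of 0 allows up to 3 reads, for counting error only. No replicate pair agreed within sampling noise (chi-square per gene 51.2 or more).

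OHT was compared with sham by limma 3.58.1 (eBayes with trend, R 4.3.3) on log2(value + 1), over the 14403 genes that averaged 10 or more in the 6 sorted libraries. All 39 genes passed this filter. Fold changes are on that scale, which understates changes of low genes. edgeR 4.0.16 and DESeq2 1.42.0 were run on the recovered reads. Other alternatives were TMM factors or quantile normalization, pseudocounts of 0.5 and 10, no filter or a mean of 100 or more, array weights, eBayes with no trend, a replicate block, and leaving out each library. A correction of each library for GC content and length (splines with 4 degrees of freedom) was added after seeing the data. GC content, length, exon number and overlaps came from GENCODE M21, a GRCm38 annotation, for the protein-coding transcript with the longest coding sequence. It covered 96.1% of genes averaging 100 or more and all 39 genes. The tests were tried on simulated data. Figures used matplotlib 3.10.9.

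The members and lists were chosen with earlier results of these data known. Per-library values were to be given for genes past the threshold, genes without overlap of OHT and sham, and the genes of each role with the highest mean or the largest ratio between libraries. Values of the other genes were added after they were seen.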

Additional observations from a re-analysis of the deposited data

How the results depend on the processing

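No gene of the 39 passed an adjusted p of 0.05 under any of 19 settings (Fosl1 under 18, since it averages under 100), and the smallest adjusted p in any of them was 0.215 (Jun, limma without OHT replicate 2). Over all genes, DESeq2 called 250 and a replicate block 2, and leaving out 1 library gave 0 to 12 calls, with 12 without sham replicate 1 and 7 without sham replicate 3. Deviations of same-numbered sham and OHT libraries had correlations of 0.08, -0.02 and -0.05, inside the range of differently numbered ones (-0.07 to 0.10). With 3 libraries per group this cannot settle whether the numbers pair the samples. The median of the 39 differences, 0.14, was -0.17 with quantile normalization, 0.45 with the GC and length correction with or without the replicate block, and -0.03 to 0.25 when 1 library was left out. Genes without overlap were 5 instead of 3 with quantile normalization (16.6% instead of 18.4% of all genes), and leaving out each library, which can only add such genes, gave the counts stated with the comparison. The direction held in every setting that tested the gene for 15 genes, 9 above 0 (Fosl2, Klf4, Klf6, Ier3, Zfp36l1, Zfp36l2, Btg1, Dnajb1 and Gadd45b) and 6 below (Fos, Fosl1, Jun, Egr1, Egr3 and Ier2). For the other 24 it changed in at least 1, and the cause was not tested. The GC correction, alike with the replicate block, gave Fosb 0.19, Jund 0.67, Maff 0.10, Klf2 0.046, Myc 0.035, Csrnp1 0.0039 and Rhob 0.25. Quantile normalization gave Atf3 -0.034, Egr2 -0.17, Nr4a1 -0.38, Ier5 -0.28, Dusp6 -0.23, Zfp36 -0.019, Btg2 -0.046, Hspa1a -0.081, Hspa1b -0.17 and Sgk1 -0.33. Nr4a1 was -0.014 with TMM factors and -0.022 with edgeR, Hspa1b -0.26 with edgeR and -0.21 with DESeq2, and Myc 0.050 and Rhob 0.068 with array weights. Leaving out 1 library reversed 19 genes, with ranges of -0.65 to 0.043 for Fosb, -1.76 to 0.12 for Junb, -0.67 to 0.18 for Jund, -0.60 to 0.056 for Maff, -0.0093 to 0.30 for Mafk, -0.11 to 0.40 for Egr2, -0.13 to 0.25 for Nr4a1, -0.082 to 1.12 for Nr4a2 and -0.29 to 0.72 for Nr4a3. They were -0.99 to 0.051 for Klf2, -0.56 to 0.11 for Myc, -0.23 to 0.40 for Ier5, -1.90 to 0.070 for Dusp1, -0.12 to 1.11 for Dusp2, -0.23 to 0.77 for Dusp5, -0.13 to 0.45 for Dusp6, -0.33 to 0.81 for Hspa1b, -0.12 to 0.33 for Sgk1 and -0.34 to 0.069 for Rhob. The summed share of the 39 genes was 2.60% in sham, 2.08% in OHT and 0.331% in culture. Out of the total without mitochondrially encoded genes, sham had 3.10% (2.58 to 3.57%), OHT 2.17% (1.64 to 2.53%) and culture 0.334%. Sham and OHT then did not overlap. Out of the total without the 20 highest genes, the shares were 3.53, 2.80 and 0.372%, and sham and OHT overlapped (3.15 to 4.03% and 2.26 to 3.38%). The culture share was 0.266% without the gene of the 39 with the highest mean. Fosl1 rests on few reads in the sorted libraries, at most 86.7 normalised counts there.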
